A study of Mus musculus with 11 samples.

Results

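Genes for chromatin modifiers and remodellers were followed in open-chromatin peak lists of mouse alveolar macrophages, the macrophages that reside in the air sacs of the lung. The set held 83 genes of 20661 autosomal protein-coding genes, taken by symbol from the RefSeq annotation of the mm10 build: every gene whose symbol starts with Kdm, Kmt, Setd, Hdac, Smarc or Arid, or with Chd or Brd followed by a digit. The rule uses symbols and no measured value, but it was set with earlier results of these data known. It left out 6 such genes on the X and Y chromosomes (Hdac6, Hdac8, Kdm5c, Kdm6a, Smarca1 and Kdm5d). The symbols also brought in Brd3os and Brd8dc, which are named after a neighbouring or related gene and for which no bromodomain role is assumed here.

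Macrophages were sorted from C57BL/6 lungs and profiled by ATAC-seq, a method that tags accessible DNA with a transposase. The naive group had 4 samples from wild-type mice without tumours, the KP day 15 group 4 samples and the KP day 30 group 3 samples. Tumour-bearing mice had received cultured KP or KP-GFP cells through the tail vein, so the tumours were transplanted, and the days count from that injection. The sources used here do not give age or sex, or which of the KP lines a sample received. All samples of a group share 1 peak list, so the values below have no replicate error, no test between groups was possible, and differences describe 3 peak lists. In sorted cells in bulk, fewer cells with an open site and less opening per cell cannot be told apart.

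These proteins set how tightly DNA is packed. Lysine methyltransferases (the Kmt and Setd families) write methyl marks on histones, demethylases (Kdm) remove them, deacetylases (Hdac) remove acetyl marks, and bromodomain proteins (Brd) bind acetylated histones. SWI/SNF complexes, which hold many Smarc and some Arid proteins, and CHD proteins use ATP to slide or evict nucleosomes. The class called SWI/SNF and related was taken by symbol, and some of its genes belong to other complexes. In macrophages such enzymes take part in switching inflammatory genes on and off, Kdm6b and Hdac3 being well studied examples.

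There were 14731 naive peaks, 10861 at day 15 and 3352 at day 30. A peak's height is given as its summit pileup, the number of tags, as the peak caller counted them, stacked at its highest point, recovered from the authors' fold and p-value. The genome-wide background was 0.785 naive tags, against 1.87 at day 15 and 1.64 at day 30. Its ratio to the naive list was taken as relative depth, which puts the tumour lists at 2.38 and 2.1 times the naive depth. That reading was not tested, since the settings of the peak calling are not given, and all values per unit of depth rest on it. Of 18 alveolar macrophage marker genes, 9 had a naive peak at a gene end, 5 had one at day 15 and 1 (Bhlhe40) at day 30. Of the 5 at day 15, Mrc1 had no naive one. Siglecf, Marco and Chil3 had none in any list. Among general macrophage markers the numbers were 6, 6 and 2 of 8. Over all autosomal protein-coding genes, 35.7%, 30.7% and 13.4% had a peak at a gene end in the naive, day 15 and day 30 lists. None of the 19 B cell, epithelial or tumour, endothelial and fibroblast markers had one in any list. Of 6 T cell markers Cd3d had one in the naive and day 15 lists, and of 6 neutrophil markers S100a8 had one in all 3.

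Peaks no more than 1000 bp from the start or the end of a gene are called its boundary peaks. A gene was called kept, lost or gained when it had a boundary peak in both lists, in the earlier one only or in the later one only. These are words about peak calls. Of the 83 genes, 53 (63.9%) had a naive boundary peak, 46 (55.4%) a day 15 one and 27 (32.5%) a day 30 one. Over all autosomal protein-coding genes the shares were 35.7%, 30.7% and 13.4%. The 27 genes of the day 30 list all had a boundary peak in the other lists too. A further 16 had one in the naive and day 15 lists only, 10 in the naive list only, 3 at day 15 only and 27 in no list.

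The promoters of the strongest naive peak in 4 classes are shown, because each lies under the strongest naive boundary peak of its class among genes with a window. The methyltransferase Setdb2 and the bromodomain gene Brd9 were lost at day 30. The demethylase Kdm4a and Arid4b, a Sin3 subunit gene placed by symbol in the SWI/SNF and related class, were kept. The sequences come from RefSeq (GRCm38.p6, the same assembly as mm10), are written 5′ to 3′ on the gene's strand, and hold 250 bases before and 50 after the start. Capitals mark matches, on either strand, to the motifs listed after them. Setdb2 lies at chr14:59440831-59441130 on the minus strand, Kdm4a at chr4:118179994-118180293 on the minus strand, Arid4b at chr13:14063534-14063833 on the plus strand and Brd9 at chr13:73937578-73937877 on the plus strand.
Setdb2: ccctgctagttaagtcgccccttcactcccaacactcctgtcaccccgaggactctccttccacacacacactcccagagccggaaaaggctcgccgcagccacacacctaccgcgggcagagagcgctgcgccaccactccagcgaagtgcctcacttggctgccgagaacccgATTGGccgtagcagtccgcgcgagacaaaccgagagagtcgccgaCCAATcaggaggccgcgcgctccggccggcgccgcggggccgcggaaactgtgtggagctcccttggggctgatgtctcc
Kdm4a: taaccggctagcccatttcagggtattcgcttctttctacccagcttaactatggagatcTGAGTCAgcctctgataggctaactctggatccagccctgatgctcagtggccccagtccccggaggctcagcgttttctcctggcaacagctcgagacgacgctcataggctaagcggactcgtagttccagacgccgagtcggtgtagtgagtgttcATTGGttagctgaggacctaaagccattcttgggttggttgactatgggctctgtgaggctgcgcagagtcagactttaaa
Arid4b: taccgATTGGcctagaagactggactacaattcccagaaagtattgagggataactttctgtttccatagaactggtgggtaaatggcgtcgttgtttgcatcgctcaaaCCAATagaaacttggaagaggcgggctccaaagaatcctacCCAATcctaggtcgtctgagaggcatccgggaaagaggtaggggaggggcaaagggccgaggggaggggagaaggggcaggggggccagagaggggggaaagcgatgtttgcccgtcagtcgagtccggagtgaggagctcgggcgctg
Brd9: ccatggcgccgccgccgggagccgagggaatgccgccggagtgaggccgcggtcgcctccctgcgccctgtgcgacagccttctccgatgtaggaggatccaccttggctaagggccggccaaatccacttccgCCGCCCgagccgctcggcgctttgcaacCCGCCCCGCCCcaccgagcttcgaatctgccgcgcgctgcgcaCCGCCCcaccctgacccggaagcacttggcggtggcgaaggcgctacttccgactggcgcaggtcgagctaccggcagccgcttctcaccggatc

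The naive peak covered all 300 bases of the Setdb2, Kdm4a and Arid4b windows and 288 of the Brd9 window. The summit lay inside the window at Setdb2, Kdm4a and Brd9 and before it at Arid4b. The peaks at Setdb2, Arid4b and Brd9 also touched an end of Gm45935, Ggps1 and Trip13, so they cannot be ascribed to 1 gene. The motifs searched were CCGGAAGT (ETS), GAGGAAGT (PU.1), TGACGTCA (CRE), TGAGTCA (AP-1), the palindromic NRF1 motif, CCAAT (NF-Y), GGGCGG (SP/KLF) and CACGTG (E-box). Setdb2 had 2 CCAAT matches, Arid4b 3, and Kdm4a 1 beside 1 TGAGTCA match, whereas Brd9 had 4 GGGCGG matches, of which the second and the third overlap by 1 base, and no CCAAT. The CpG number, the count of CG dinucleotides in the window, was 29 for Setdb2, 13 for Kdm4a, 14 for Arid4b and 39 for Brd9. A match here is a run of letters and not a shown binding site.

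A RefSeq promoter window was found for 61 of the 83 genes, and features were read from the window at the outermost start. GGGCGG was present in 45 of the 61 (73.8%), against 47.4% of 16456 autosomal genes with a window and 69.1% of the 6079 that had a naive boundary peak. CCAAT was in 21 (34.4%), against 39.1% and 43.3%. CCGGAAGT was in 1 window (Setd4), the NRF1 motif in 1 (Brd2), CACGTG in 1 (Hdac5) and TGAGTCA in 3 (Kdm4a, Smarca2 and Smarcb1), and GAGGAAGT and TGACGTCA were in none. In the same order these motifs were in 5.46%, 1.37%, 7.98%, 4.58%, 3.23% and 2.41% of all autosomal genes with a window, and in 10.1%, 2.55%, 10.9%, 2.68%, 3.04% and 3.88% of those that had a naive boundary peak.

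The windows of the 22 genes with a boundary peak in all 3 lists held a median of 21.5 CpG and a C plus G share of 60.8%. Those of the 19 genes found in the naive list and not at day 30 held 29 CpG and 66.3%. GGGCGG was in 14 of the 22 (63.6%) and 17 of the 19 (89.5%), and CCAAT in 10 (45.5%) and 6 (31.6%). Over all autosomal genes the order was the other way for CpG and GGGCGG: 24 CpG and 74.1% with GGGCGG in the genes of all 3 lists, 21 and 66% in those without a day 30 peak. The ranges overlapped widely, from 1 CpG at Setd5 to 41 at Setd3 among genes in all 3 lists, and Kmt2c with 56 was the highest among those lost at day 30.

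**Figure D1:**
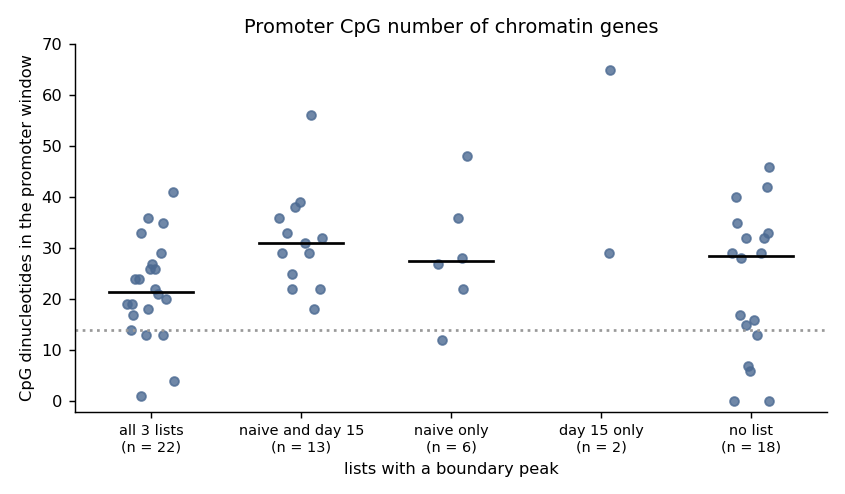
CpG dinucleotides in the 300-base RefSeq promoter window of 61 chromatin genes (points), grouped by the lists with a boundary peak; black bars are medians (none for the group of 2) and the dotted line is the median of 14 over all autosomal genes with a window. Genes in all 3 lists have a median of 21.5 and genes in the naive and day 15 lists a median of 31, with overlapping ranges.

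Lysine methyltransferases had the largest share of genes with a naive boundary peak among the 6 classes, 15 of 18, and 14 at day 15 and 8 at day 30. The 8 genes with a peak in all lists were the MLL-family writers Kmt2b and Kmt2d, the histone H4 methyltransferases Kmt5a and Kmt5c, the COMPASS enzyme Setd1a, the actin methyltransferase Setd3, Setd5 and Setd7. In the naive, day 15 and day 30 lists the summit pileup was 44, 47 and 29 tags at Kmt5c, 47, 49 and 25 at Setd3 and 34, 35 and 26 at Setd5. Kmt2b had 37, 30 and 18 tags and Kmt5a had 35, 26 and 17. At these 5 genes the day 30 value was the lowest of the 3. Over all autosomal genes kept, the raw day 30 pileup was below the naive one at 2483 of 2738 and below the day 15 one at 2577 of 2699.

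The other 3 methyltransferases in all lists had low naive peaks: 15, 19 and 17 tags at Setd1a, 15, 15 and 12 at Kmt2d, and 14, 11 and 13 at Setd7. At Setd1a and Setd7 the strongest naive peak is not the one that was strongest later. At its start Setd1a had 11, 19 and 17 tags in overlapping peaks, and its 15-tag naive peak at the other end was overlapped at day 15 by a peak of 19 tags and at day 30 by none. The overlapping peaks of Setd7 had 13, 11 and 13 tags. The strongest naive peaks of Setd1a (127800384 to 127800679 on chromosome 7) and Kmt2d (98831443 to 98831918 on chromosome 15) lay away from the gene's start and nearest to the ends of Hsd3b7 and Prkag1. Genes in the naive and day 15 lists only were Setdb2, Setd2, Setd4, Kmt2a, Kmt2c and Kmt2e. Setdb2, a writer of silencing marks, had 49 naive tags (59440741 to 59441291 on chromosome 14, fold 14.5), 24 at day 15 and no boundary peak at day 30.

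Setdb2 was thus the strongest of the 83 genes among those without a day 30 peak. Its naive −log10 p of 46.0 lay in the top decile, where 92.7% of all genes had kept theirs, and the nearest day 30 peak was 239 kb away. Ends of Gm45935 and Cab39l lie within 1000 bp of the same peak. Setd2, which marks transcribed gene bodies, had 24 and 33 tags in the naive and day 15 lists, and the MLL-family member Kmt2e 27 and 28. Kmt2a had 13 and 18, Kmt2c 16 and 21 and Setd4 15 and 25. Setd6 had a naive peak only, of 11 tags, and Kmt5b, Setd1b and the silencing enzyme Setdb1 had no boundary peak.

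Of 15 demethylases 8 had a naive boundary peak (53.3%, against 35.7% over all autosomal genes), and 7 of those 8 had one in all 3 lists. Their naive peaks had a median −log10 p of 21.4, against 15.0 over the 53 chromatin genes. At day 30 the share kept was 37.1% over the whole genome's autosomal genes. For the 8 demethylases, 4.5 kept would correspond to the share at equal naive strength. Kdm4a and Kdm4b, which remove methyl groups from histone H3, had the strongest naive peaks of the 83 genes by −log10 p, 53.8 and 49.9. Their pileups were 55, 39 and 18 tags at Kdm4a and 53, 45 and 33 at Kdm4b. Kdm1b, a flavin-dependent demethylase, had 27, 37 and 23 tags, at a peak that also reaches an end of Tpmt. Both Kdm4 genes were highest in the naive list, whereas Kdm1b was highest at day 15 before depth is taken into account.

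Kdm3a had 26, 28 and 17 tags, Kdm4d 25, 21 and 17, Kdm5a 20, 14 and 13 and the JmjC-domain gene Kdm8 19, 26 and 15. Kdm3b was in the naive list only, with 9 tags. Kdm7a was gained at day 15, with 13 tags at 39206905 to 39207251 on chromosome 6, 132 bp outside the gene. Scaled to the naive depth these are 5.45 tags, below the 6 tags of the lowest naive peak of any gene. Kdm1a, Kdm2a, Kdm2b, Kdm4c, Kdm5b and Kdm6b had no boundary peak in any list.

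Of 9 deacetylases 4 had a naive boundary peak, 4 one at day 15 and 1 at day 30. The exception at day 30 was Hdac2, a class I enzyme of the Sin3 and NuRD co-repressors, with 35, 20 and 29 tags in the naive, day 15 and day 30 lists. With Setd7, it was 1 of 2 of the 27 genes whose raw pileup was higher at day 30 than at day 15. Over all autosomal genes kept between these lists, it was higher at 82 of 2699. Hdac1, its close paralogue, had 18 and 18 tags and no day 30 peak, and Hdac5, a class IIa enzyme, had 10 and 17 tags. Hdac11 had 10 tags in the naive list only. Hdac10 was gained at day 15 with 19 tags at 89128568 to 89128811 on chromosome 15, across the upper end of the gene, or 7.97 tags at the naive depth. Hdac3, Hdac4, Hdac7 and Hdac9 had no boundary peak.

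Of the 22 SWI/SNF and related genes 14 had a naive boundary peak, 12 at day 15 and 6 at day 30. The 6 in all lists included both alternative catalytic ATPases, Smarca4 (BRG1) and Smarca2 (BRM). Smarca2 had 42, 37 and 19 tags and Smarca4 15, 20 and 16. The Sin3 co-repressor subunits Arid4a and Arid4b had 43, 59 and 26 tags and 53, 41 and 26 tags. The Arid4b peak also touched an end of Ggps1.

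Smarcd2, a SWI/SNF subunit needed for granulocyte development, had 34, 23 and 14 tags, and the ATPase gene Smarcad1 19, 18 and 13. Genes in the naive and day 15 lists only were Arid1a (11 and 17 tags), Arid3b (10 and 17), Arid5a, which encodes an RNA-binding protein (22 and 30), the ISWI ATPase gene Smarca5 (34 and 25) and the scaffold subunit gene Smarcc1 (9 and 23). Per unit of depth, Smarcc1 alone of the 43 genes kept at day 15 had a higher pileup there than in the naive list. Its ratio was 1.07, from a naive peak of 9 tags. Over all autosomal genes kept at day 15, the ratio was above 1 at 22 of 5905 (0.373%). Arid2, Smarcb1 and Smarcc2 had naive peaks only, of 19, 10 and 10 tags.

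The naive Arid2 peak was nearest to Gm38469, and a day 15 peak of 21 tags lay 0.688 kb from it, outside the boundary window. Arid3c was gained at day 15, with 15 tags (6.29 at the naive depth), but that peak touched an end of Dctn3 and lay 461 bp from Arid3c. No boundary peak was found at Arid1b, Arid3a, Arid5b, Smarcal1, Smarcd1, Smarcd3 or Smarce1.

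Among CHD remodellers 6 of 10 had a naive boundary peak and 5 of these had one in all 3 lists. Chd6 had 46, 52 and 25 tags, Chd8 35, 40 and 12, and Chd1, which spaces nucleosomes behind RNA polymerase, 22, 30 and 13. Chd9 had 19, 24 and 17 tags and Chd1l 18, 20 and 13. All 5 had their highest raw pileup at day 15 and their lowest at day 30. Over all autosomal genes kept, raw pileup was higher at day 15 than in the naive list at 3134 of 5905. It was lower at day 30 than at day 15 at 2577 of 2699. Scaled to the naive depth, the naive value was the highest at all 5, for example 46 against 21.8 at day 15 and 11.9 at day 30 at Chd6. This was general: over all autosomal genes kept, the scaled value exceeded the naive one at 22 of 5905 at day 15 and 2 of 2738 at day 30. Chd7 had a naive boundary peak only, of 10 tags. Chd2, Chd3, Chd4 and Chd5, of which the last 3 are ATPases of the NuRD complex, had none.

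The bromodomain class had no gene with a boundary peak at day 30, against 6 of 9 in the naive list and 3 at day 15. Brd7, a PBAF subunit, had 16 and 15 tags, Brd9, of non-canonical SWI/SNF, 18 and 15, and Brd8, of the TIP60 acetyltransferase complex, 16 and 23 in the naive and day 15 lists. Brd1, a scaffold of an acetyltransferase complex, had 9 tags in the naive list only, as did Brd3os with 7. Brd2, Brd3 and Brd8dc had no boundary peak. The naive peaks of this class had a median −log10 p of 12.01, against 15.0 over the 53 genes, and 0.945 genes kept at day 30 would correspond to the share among all genes of equal strength.

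**Figure D2:**
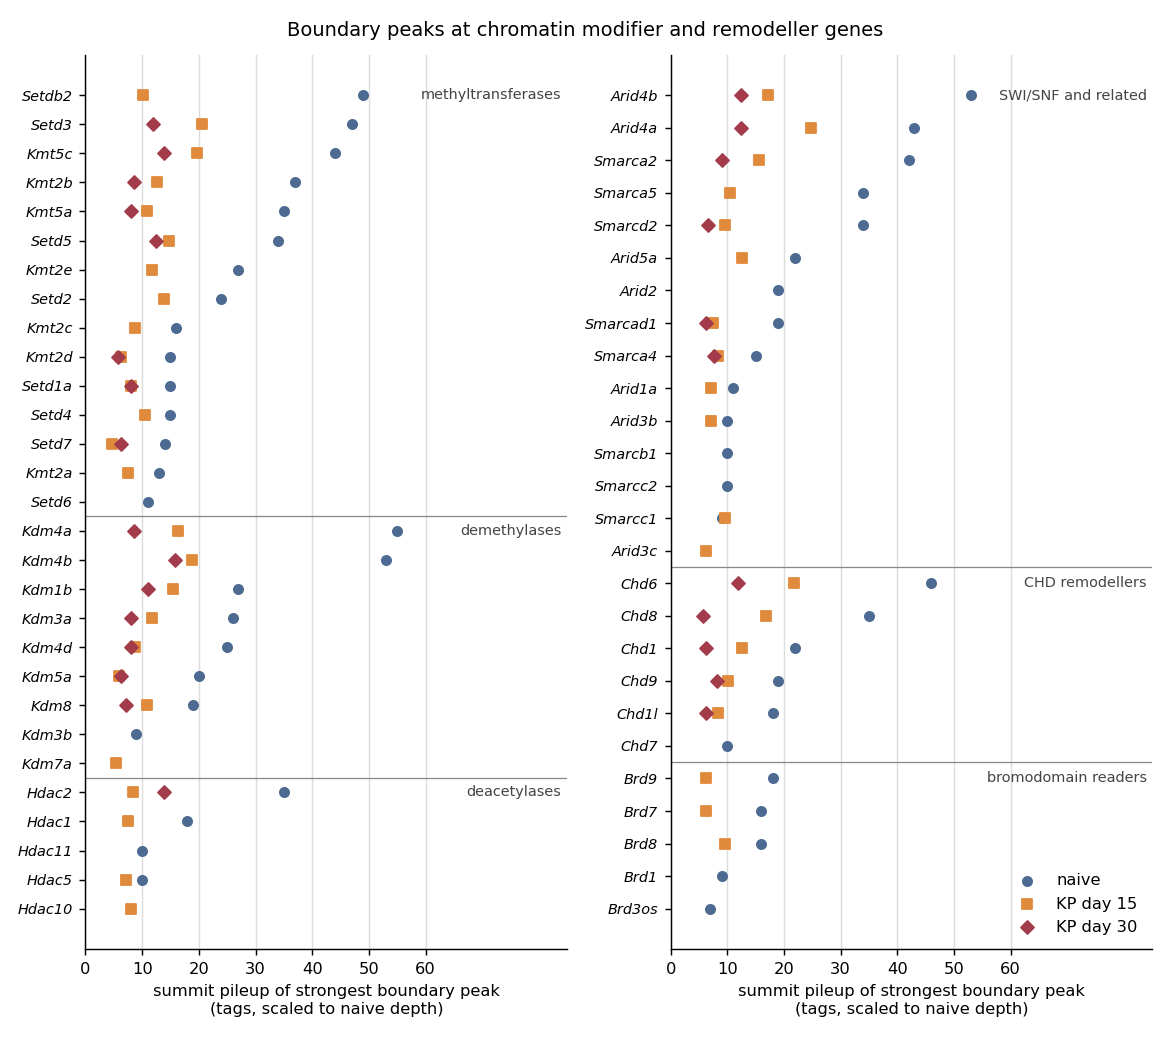
Summit pileup of the strongest boundary peak, in tags scaled to the naive depth, at 55 of the 56 chromatin genes with a boundary peak in at least 1 list; each symbol is 1 peak list with no replicate, and a missing symbol means no boundary peak. Naive values exceed the scaled day 15 values at every gene found in both lists except Smarcc1. Over all autosomal genes in both lists, the scaled day 15 value was higher at 22 of 5905. Kdm4a has the highest naive value, 55 tags, followed by Kdm4b and Arid4b with 53 each.

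Kept and lost genes were compared with genes of equal naive strength, since a weak peak is more easily missed in another list. For each decile of the naive −log10 p over the 7382 autosomal genes in the naive list, the share kept was taken, and these shares were summed over the 53 chromatin genes. The 53 genes had naive peaks of usual strength: their median −log10 p was 15.0, against 15.2 over all 7382, and 26 of the 53 (49.1%) lay in the upper 5 deciles. Between naive and day 15, 43 of the 53 (81.1%) were kept, where 80.0% of all genes were, and 41.3 corresponded to equal strength. The 10 lost genes (18.9%, background 20%) all had a naive −log10 p of at most 10.4, and all 26 in the upper deciles were kept, where 97.1% of all genes were. The 3 gained genes were 10.0% of the 30 without a naive peak, against a background of 3.27%. Of these 3, the Arid3c peak touched an end of Dctn3, and the Kdm7a peak scaled to 5.45 tags, below the lowest naive peak. With the nearest gene only 2 were gained, and with the start end only, which covers the genes of known strand, 1.

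Among the strongest of the 10 lost at day 15 were Arid2, Hdac11, Smarcb1 and Setd6, with naive −log10 p of 10.4, 8.36, 7.998 and 7.83. Apart from Arid2, the nearest day 15 peak to these lay 27.9 to 82.1 kb away. The weaker 5 were Smarcc2, Brd1, Chd7, Brd3os and Kdm3b. At this strength loss was common in general: 40.3% of all genes in the lowest decile and 51.6% in the next had kept their peak, against 3 of 10 and 2 of 3 of the chromatin genes.

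Between naive and day 30, 27 of the 53 (50.9%) were kept, against 37.1% of all genes, and 21.1 corresponded to equal strength, a difference of 5.89 genes. The 26 lost were 49.1%, with a background of 62.9%, and none was gained (background 0.264%). In the lower 5 deciles 6 of 27 (22.2%) were kept, against 12.9% of all genes. In the upper 5, 21 of 26 (80.8%) were kept, against 61.3%. By class, 7 demethylases were kept where 4.5 corresponded to equal strength, 5 CHD genes where 2.5 did, 8 methyltransferases (6.52), 6 SWI/SNF and related genes (5.39), 1 deacetylase (1.25) and 0 bromodomain genes (0.945). Classes of 4 to 15 genes are too small to rank by these differences.

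The 6 genes kept from the lower deciles were Setd7, Setd1a, Smarca4, Kmt2d, Chd1l and Chd1, with naive pileups of 14 to 22 tags. The strongest 5 lost at day 30 were Setdb2, Smarca5, Setd2, Kmt2e and Hdac1, with a naive −log10 p of 46.0, 26.9, 21.1, 16.2 and 16.1. From their naive peaks the nearest day 30 peak lay 46.0 to 275 kb away, far outside the boundary window. All 5 had kept a boundary peak at day 15.

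**Figure D3:**
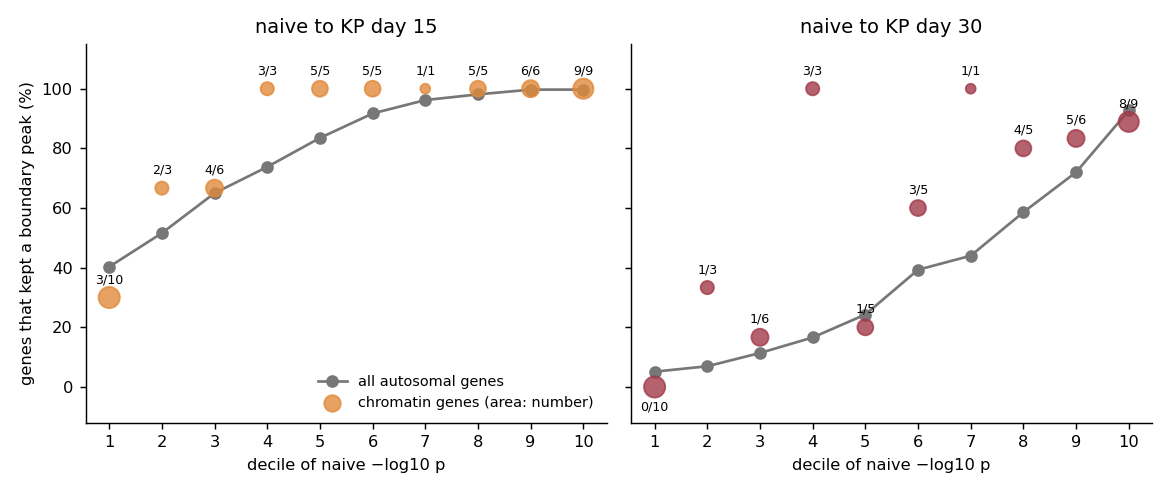
Share of genes that kept a boundary peak, by decile of the naive −log10 p, at day 15 (left) and day 30 (right); grey points are all autosomal genes, coloured points the chromatin genes, with the number kept over the number in the decile. At day 15 all 26 chromatin genes of deciles 6 to 10 were kept, and at day 30 the chromatin genes lie above the grey line in 7 of the 10 deciles.

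From day 15 to day 30, 27 of 46 (58.7%) were kept, against 42.6% of all genes, and 22.4 corresponded to equal day 15 strength, a matching added after the data were seen. The 19 lost were 41.3% (background 57.4%), and none was gained (background 0.517%). This comparison shares its lists with the others and is not independent of them.

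The order of the lists was the opposite when they were brought to equal length. With the strongest 3352 peaks of each, the length of the day 30 list, boundary peaks were found at 20 chromatin genes (24.1%) among naive peaks, 25 (30.1%) among day 15 peaks and 27 (32.5%) among day 30 peaks. Over all genes the shares were 13.2%, 13.6% and 13.4%. So 53, 46 and 27 genes in the full lists became 20, 25 and 27. The lowest pileup was then 18 naive, 20 day 15 and 9 day 30 tags.

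Under equal lengths 17 of 20 (85%, background 68.8%) were kept from naive to day 30, Setdb2, Setd2 and Smarca5 were lost (background 31.2%), and 10 were gained (15.9%, background 5.02%). The 10 were Chd1, Chd1l, Chd9, Smarca4, Smarcad1, Kdm5a, Kdm8, Kmt2d, Setd1a and Setd7. All 10 also had a naive boundary peak in the full list, so this is a higher place among the peaks of the list and not a new peak. At day 15, 18 of the 20 were kept (90.0%, background 77.2%), Smarcd2 and Hdac2 were lost (10.0%, background 22.8%), and 7 were gained (11.1%, background 3.9%): Chd1, Chd9, Arid5a, Smarcc1, Brd8, Kdm8 and Setd4. From day 15 to day 30, 18 of 25 were kept (background 69.7%), 7 were lost (background 30.3%) and 9 were gained (15.5%, background 4.6%). CHD genes numbered 2, 4 and 5 in the 3 equal lists, demethylases 5, 6 and 7, methyltransferases 7, 8 and 8, SWI/SNF and related genes 5, 6 and 6, deacetylases 1, 0 and 1, and bromodomain genes 0, 1 and 0.

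**Figure D4:**
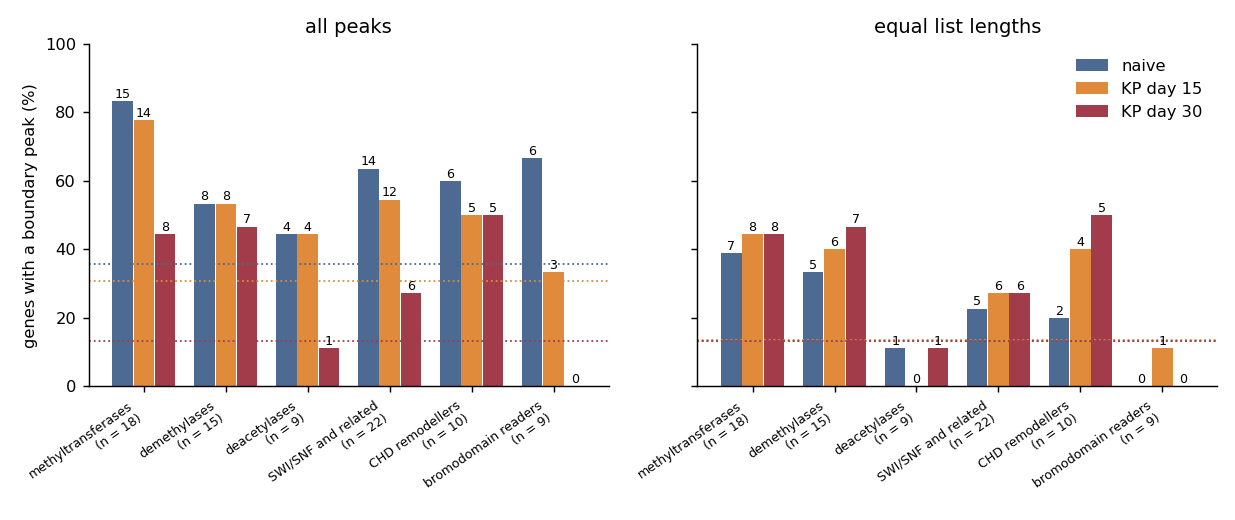
Share of genes of each class with a boundary peak in the naive, KP day 15 and KP day 30 lists, with all deposited peaks (left) and with the strongest 3352 peaks of each list (right); numbers above bars are genes and dotted lines the share among all autosomal genes. In the full lists the bromodomain class goes from 6 genes to 3 and 0; in lists of equal length the CHD class goes from 2 to 4 and 5.

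Heights of the kept peaks were close to those of all genes, relative to the naive list. At the 43 genes kept at day 15 the median pileup was 22 tags in the naive list and 24 at day 15, and per unit of depth the median ratio of day 15 to naive was 0.448, against 0.439 over 5905 genes. Ratios ran from 0.205 at Setdb2 and 0.24 at Hdac2 to 0.713 at Hdac5 and Arid3b and 1.07 at Smarcc1. At the 27 kept at day 30 the medians were 34 and 17 tags and the median ratio 0.312, against 0.29 over 2738 genes, from 0.156 at Kdm4a to 0.541 at Setd1a. Without Setd1a and Setd7, a choice made after seeing the data because their strongest naive and later peaks differ in place, the highest day 30 ratio was 0.509, at Smarca4, and the medians were 0.448 at day 15 and 0.31 at day 30. In overlapping peaks Setd1a had ratios of 0.725 at day 15 and 0.737 at day 30 at the start, and 0.531 at day 15 at the other end. From day 15 to day 30 the ratio was 0.721 against 0.697, and it was above 1 at 4 of 27 genes (14.8%), against 8.93% of all. The 4 were Hdac2 (1.65), Setd7 (1.34), Kdm5a (1.06) and Setd1a (1.02).

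Every one of the 43 and 27 kept genes had overlapping boundary peaks in both lists. So did 5848 of 5905 and 2716 of 2738 of all autosomal genes kept. No peak served 2 chromatin genes, but in the naive list 15 of the 53 (28.3%) had their strongest peak within 1000 bp of another protein-coding gene's end as well, close to 30.8% of all genes. With a known strand, 39 of 41 (95.1%) had the naive peak at the start and not the other end, and 28 of these 39 had the summit within 200 bp of the start. All genes gave 95.7% and 72%. The naive calls closest to the 1000 bp limit were Setd4 and Brd1, at 680 and 687 bp inside it, and Kdm6b, Kdm2a and Hdac3, at 1242, 1246 and 1271 bp outside.

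For all peaks, including those away from gene ends, each was assigned to the closest protein-coding gene end, up to 50 kb away. Chromatin genes received 113 naive, 94 day 15 and 32 day 30 peaks, or 1.36, 1.13 and 0.386 a gene, against 0.614, 0.465 and 0.151 over all autosomal genes. The chromatin genes were longer, with a median of 46.5 kb against 17.5 kb, and the part of length in these numbers was not tested. Distal peaks, more than 1000 bp from the end, numbered 57, 50 and 7, or 50.4%, 53.2% and 21.9% of the assigned peaks. Over all autosomal genes they numbered 5836, 3921 and 759, or 46.0%, 40.8% and 24.3%. At the chromatin genes 39, 34 and 5 of them lay inside the gene they were assigned to. A matching share over all genes is not given.

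Of the 57 naive distal peaks, 38 (66.7%) were overlapped by a day 15 peak, against 55.2% of 5836 distal peaks of all genes and 31.8 at equal strength. At day 30, 7 (12.3%) were overlapped, against 11.8% and 7.12 at equal strength. Of the 56 naive boundary peaks assigned in this way, 44 (78.6%, against 75.4%) were overlapped at day 15, where 39.2 corresponded to equal strength, and 24 (42.9%, against 33.4%) at day 30, where 18.5 corresponded to equal strength. At day 30 the count thus stood above that of equal strength for boundary peaks and close to it for distal ones.

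**Figure D5:**
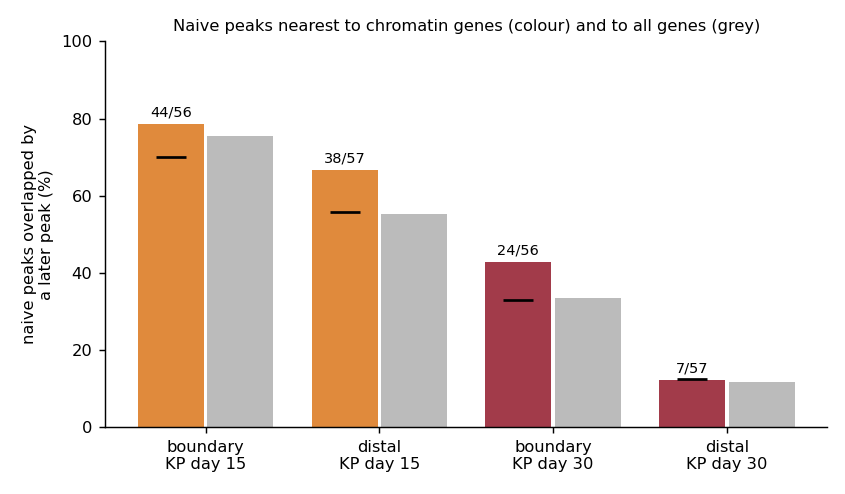
Share of naive peaks overlapped by at least 1 bp by a KP day 15 or day 30 peak, for peaks nearest to chromatin genes (coloured, with counts) and to all autosomal genes (grey), split into boundary and distal peaks; black dashes give the number at equal strength as a share. At day 30, 24 of 56 boundary peaks but 7 of 57 distal peaks were overlapped.

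Summed over the 3 lists, Chd7, a remodeller known for its role at enhancers, Kmt2e and Arid5b had the most distal peaks. In the naive list Chd5 also had 4, and at day 30 Chd2 had the most, 2. Chd7 had 4 naive, 7 day 15 and 0 day 30 distal peaks. All 4 naive ones were overlapped at day 15, the strongest at 8853973 to 8854434 on chromosome 4, inside the gene, with 28 naive and 33 day 15 tags. Day 15 peaks with no naive counterpart lay inside the gene at 8700050 to 8700435 (13 tags) and 8837504 to 8837879 (19 tags) and outside it at 8666788 to 8666987 (10 tags). At the naive depth 19 tags are 7.97 and 13 tags are 5.45. The peaks of 13 and 10 tags thus fall below the 6 tags of the lowest naive peak. Chd7 thus lost its boundary peak at day 15 in the same list in which its distal peaks were most numerous.

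Kmt2e had 4, 5 and 1 distal peaks. The strongest lay 45743 bp outside the gene at 23386872 to 23387293 on chromosome 5, with 41 naive, 36 day 15 and 15 day 30 tags, and was its only distal peak at day 30. Arid5b, a DNA-binding gene without a boundary peak, had 4, 4 and 1, of which a peak inside the gene near 68241012 on chromosome 10 was in all 3 lists with 12, 20 and 15 tags. Kdm6b, the inflammation-inducible demethylase, had 1 naive distal peak of 19 tags, 3 at day 15 of 14 to 20 tags, and 0 at day 30. At the naive depth 14 tags are 5.87, also below the lowest naive peak. A day 30 peak of 20 tags lay 2651 bp from an end of Kdm6b, but nearer to an end of another gene.

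Of the 27 genes without a boundary peak in any list, 17 had a naive peak inside the gene, among them Arid1b with 9, 6 and 1 peaks in the 3 lists, Hdac4 with 7, 4 and 2 and Hdac9 with 3, 1 and 0. The 27 genes had a median length of 51.55 kb, against 17.49 kb over all autosomal genes. The matching share over all genes without a boundary peak was not counted, and the part of length was not tested. Brd2 and Smarcal1 had 1 inside peak in every list. The inside peaks of Brd2, Smarcal1 and Hdac9 were not assigned to them by nearest end. Kdm5b had none inside but 1 assigned in the naive and day 15 lists, and Smarcd1 1 at day 15. The remaining 8, Brd8dc, Chd4, Hdac3, Hdac7, Kdm1a, Setdb1, Smarcd3 and Smarce1, had no peak inside and none assigned. At Hdac3 a peak of 25 naive and 22 day 15 tags lay 1271 and 1226 bp outside the gene, and was assigned to a nearer end of another gene.

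Of 90 other chromatin genes, 87 are autosomal in the annotation: writers such as Ezh2 and Ep300, complex subunits such as Eed and Ncor1, erasers and readers such as Sirt6 and Bptf, remodellers such as Ino80 and the DNA methylation genes. Of the 87, 58 (66.7%) had a naive boundary peak, a share like the 63.9% of the 83 genes. At day 15, 49 (84.5%) were kept where 45.9 corresponded to equal strength, and at day 30, 24 (41.4%) where 21.6 did. Of those without a naive boundary peak, 1 was gained at day 15 and 0 at day 30. Over all autosomal genes the shares gained were 3.27% and 0.264%. The 41.4% kept at day 30 lay between the 50.9% kept in the set of 83 genes and the 37.1% of all genes. By role, 6 of 18 writers (6.14 at equal strength), 7 of 15 complex subunits (6.5) and 7 of 12 erasers and readers (4.83) were kept at day 30. So were 4 of 11 remodellers (3.84) and 0 of 2 DNA methylation genes, Uhrf1 and Tet2 (0.279). These groups are too small to rank by the differences.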

How the data were processed

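Peak lists from ATAC-seq of sorted alveolar macrophages were analysed, 1 list for each of 3 groups of 4, 4 and 3 samples. Tools are named per the submitters' processing notes, which list MACS2 2.1.1, Bowtie2 2.3.4.1 and mm10, without a role for each; settings, read filters, transposase shift and pooling of samples are not given in the sources used here, and the design text speaks of triplicates. Deposited columns, without headers and read from their values, are a score, a fold over local background (a ratio), a −log10 p-value and a −log10 q-value; the fold, p and score of a peak are the authors'. From fold and p, taken as (pileup + 1) / (background + 1) and the upper Poisson tail, whole-number pileups were recovered for every peak within 0.001 of its −log10 p. No background was allowed under the list's floor, and that floor was taken as the measure of relative depth. The recovery and the decile sums were run on simulated data, for the recovery made with the same formulas. Such data check the computation and cannot show that the deposited columns were read rightly.

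Gene ends came from the RefSeq table of GRCm38.p6, which is the mm10 assembly, and strand from the RefSeq promoter windows (61 of 83 genes). Distances, deciles and medians were computed in Python 3.11.15 with pandas 2.3.3 and scipy 1.17.1. Naming followed a rule: genes are named, with values for genes in all 3 lists, those gained, the 5 strongest lost at each time and the 3 with most distal peaks; other values were chosen after they were seen. The genes, lists and settings were chosen with earlier results of these data known. No test was made, since each group has 1 list. Alternatives were the window, the gene end, stricter and equal-length lists, the nearest gene only, the overlap, the distal distance and the strength bins; those added after seeing the data were a set without Brd3os and Brd8dc, genes with a promoter window, day 15 strength bins and genes whose strongest peaks overlap. X and Y genes were left out, and 1 gene that is part of the counts is not reported here by name.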

Additional observations from a re-analysis of the deposited data

How the results depend on the processing

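No paired analysis was possible because each group has 1 list, and for the same reason no sample could be left out. Of the recomputed values 81 stayed within 1.5 times the reported one (for differences from equal strength, within 1 gene) and 19 did not, and no difference changed sign. With lists of equal length, genes with a boundary peak numbered 20 in the naive and 25 in the day 15 list; 18 were kept, 2 lost and 7 gained at day 15; 17 were kept, 3 lost and 10 gained at day 30; and 7 were lost and 9 gained from day 15 to day 30. Peaks assigned to the genes were then 25 in the naive and 30 in the day 15 list. With the start end only, which covers the genes of known strand, 6 were lost and 1 gained at day 15. From day 15 to day 30, 1 gene was gained with a 2000 bp window, with a −log10 q of at least 3, and with the nearest gene only, where 0 had been. The difference from equal strength at day 30 was 7.18 genes with deciles of the fold, and that at day 15 was 2.98 among genes with a promoter window, a choice made after seeing the data. Where the construction of the alternative (fewer peaks or fewer genes) does not show it, the cause was not tested. The lowest pileup was 6 tags in the naive list and 9 in the others, so weaker sites could not be seen.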
